A study of Mus musculus with 21 samples.

Results

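In cardiac progenitor cells that made extra Sox7, 997 genomic regions became accessible that were already accessible in endothelial progenitor cells without extra Sox7. They were chosen by presence of ATAC-seq peaks. Peaks of 8 ATAC-seq lists were merged where they overlapped by 1 bp or more, which gave 51264 regions. A region was kept if it had a peak in both lists of induced cardiac progenitors, in neither list of uninduced cardiac progenitors, and in at least 1 list of uninduced endothelial progenitors. These CPC-gained, EPC-open regions were 1.94% of all regions, and since those 3 groups of lists chose them, their openness there is a description and no finding.

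All samples came from A2lox-Sox7-Myc, 1 line of mouse embryonic stem cells made from the parental line E14Tg2a, in which doxycycline switches on a Myc-tagged Sox7 in whatever cell type forms. They were grown as embryoid bodies, floating aggregates that form mesoderm, to day 4, and induced cultures had doxycycline at 1 µg/ml for the last 24 h. ATAC-seq, which maps accessible chromatin by where a transposase inserts, was made from cells sorted as PDGFRalpha+FLK1+ (cardiac progenitors, CPC) and PDGFRalpha-FLK1+ (endothelial progenitors, EPC), with 2 induced and 2 uninduced samples of each. ChIP-seq with an antibody against the Myc tag was made from unsorted cells, with 4 induced and 4 uninduced samples and 1 input. The growth protocol also names a PDGFRalpha+FLK1- sort, which differs from the sample characteristics used here. Nothing says that samples were separate differentiations, so errors cover the spread between these samples and may be technical. More cells of another type inside a sort gate and more open regions per cell cannot be told apart in such bulk samples, nor can the cells that carried an anti-Myc peak.

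Sox7 belongs with Sox17 and Sox18 to the SOXF family, transcription factors that bind short ACAAT-like sequences and act in early endothelial and blood-forming cells. Endothelial and cardiac progenitors arise from neighbouring FLK1-expressing mesoderm, and the sort separates them by PDGFRalpha, a receptor kept longer in cardiac mesoderm. Genes such as Cdh5 and Tek are switched on as endothelium forms, whereas globin genes and Nfe2 mark the red blood cell branch. The comparison asks whether the regions gained with Sox7 in cardiac progenitors were those of endothelial or blood genes.

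Because a region that spans a gene's start can be read base by base, the promoters on these regions are shown first. Promoter windows, from 250 bases before to 50 bases after a gene's start in RefSeq (GRCm38.p6), lay on 125 of the 997 regions, which held 151 windows of 136 genes, 108 of them protein-coding. None of these 136 genes stood in any of the 15 gene lists described below. Those lists hold only 349 entries beside 21887 protein-coding genes, so the count of 0 gives no result about them. A peak of at least 1 induced anti-Myc list lay on 18.0% of all 997 regions and on 4.75% of all ATAC regions. In 5 of the 108 protein-coding genes with a window here, the region also overlapped such a peak. Of these, the windows of Tmem86b, Llgl1 and Kcnn1 themselves lay on a peak of induced list 3, that of Gm7609 lay on a peak of induced list 1, and that of Slc5a5 lay beside the peak. The first 3 are printed 5′ to 3′ on the gene's own strand, with the SOX core ACAAT, or ATTGT where it reads on the other strand, in capitals. Tmem86b codes for an enzyme that breaks down lysoplasmalogen lipids, and its window is chr7:4630433-4630732 on the minus strand.
Tmem86b: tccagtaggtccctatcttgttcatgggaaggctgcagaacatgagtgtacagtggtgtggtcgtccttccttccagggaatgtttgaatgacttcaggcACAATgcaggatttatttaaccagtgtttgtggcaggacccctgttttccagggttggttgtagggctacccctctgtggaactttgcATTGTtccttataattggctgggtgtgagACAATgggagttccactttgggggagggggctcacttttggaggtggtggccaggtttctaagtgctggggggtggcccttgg
Llgl1 codes for a cell polarity protein, and its window is chr11:60699450-60699749 on the plus strand.
Llgl1: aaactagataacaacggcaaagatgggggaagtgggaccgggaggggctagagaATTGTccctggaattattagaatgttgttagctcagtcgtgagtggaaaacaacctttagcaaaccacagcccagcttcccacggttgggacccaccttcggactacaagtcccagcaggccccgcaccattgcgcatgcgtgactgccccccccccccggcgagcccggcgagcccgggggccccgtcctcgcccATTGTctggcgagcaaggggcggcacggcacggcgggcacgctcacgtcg
Kcnn1 codes for a calcium-activated potassium channel, and its window is chr8:70863209-70863508 on the minus strand.
Kcnn1: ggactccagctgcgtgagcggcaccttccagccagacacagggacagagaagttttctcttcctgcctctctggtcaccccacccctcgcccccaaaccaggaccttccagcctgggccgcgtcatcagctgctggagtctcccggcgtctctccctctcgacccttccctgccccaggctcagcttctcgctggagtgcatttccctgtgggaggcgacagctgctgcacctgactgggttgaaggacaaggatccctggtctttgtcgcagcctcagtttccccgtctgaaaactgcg
The Tmem86b window held 3 matches, the Llgl1 window 2 and the Kcnn1 window 0. Over all promoters, 31% of 32851 windows held ACAAT on either strand, against which 37 of the 151 windows on the regions did (24.5%). The longer AACAAT was in 9.93% of the windows on the regions and in 10.7% of all windows, and ACAATG in 11.3% and 12.6%, both of which contain ACAAT and so overlap with it. The promoters on these regions therefore did not hold the core more often than promoters in general. Most of the 997 regions are not promoters, and their own sequence was not read here.

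The 3 promoter regions differed in the scores of their peaks. The scores given here are those the authors deposited, 1 per peak, which rank peaks within a list. List medians were 142 and 138 in induced CPC, 151 and 149 in induced EPC, and 161 and 138 in uninduced EPC. Scores of different lists are set side by side without scaling, so a higher one need not mean a more open region. The Tmem86b region (chr7:4629592-4631356) scored 363 and 456 in induced CPC, 1634 and 1540 in induced EPC, and 522 and 478 in uninduced EPC, with an anti-Myc peak of score 144 in induced list 3. The Llgl1 region (chr11:60698482-60700313) scored 57.9 and 62.6 in induced CPC, 67.6 and 146 in induced EPC, and 101 and 107 in uninduced EPC. The Kcnn1 region (chr8:70863022-70864046) scored 125 and 70.6 in induced CPC, 132 and 182 in induced EPC, and 52.9 in 1 uninduced EPC list. Tmem86b was thus among the 10 regions with the highest scores in induced CPC, while Llgl1 lay below the median of the 997 regions in both induced CPC lists and Kcnn1 in 1 of them.

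Depth is unknown, since the lists hold no read counts, so a missing peak may mean a shallow library as well as a closed region. The ATAC lists held 23068 to 30732 peaks with a lowest score of 50, the ChIP lists 772 to 2807 and the input 689. The uninduced CPC lists held 27540 and 23068 peaks, fewer than the induced CPC lists with 29291 and 27979. A shorter uninduced list can add regions to the gained set and take regions from the lost set. The lowest score was 50.07 in uninduced ChIP list 4 and 40 to 40.08 in the other ChIP lists and the input, so that list had the higher cutoff. Uninduced ChIP lists 2 and 4 shared 75.8% of their peak starts, against at most 1.04% for any other pair of ChIP or input lists, which set them apart from every other pair, and they entered as 1 library. The cell type labels were checked with endothelial, blood, cardiac, early mesoderm and endoderm marker genes. The labels did not use these, except for Kdr among the endothelial and Pdgfra among the early mesoderm markers. Regions with a peak in both uninduced EPC lists and no uninduced CPC list were counted against the reverse. They numbered 19 and 1 of 80 at endothelial markers, 12 and 1 of 48 at blood markers, and 6 and 8 of 70 at cardiac markers. Early mesoderm markers had 1 and 1 of 20, and endoderm markers 2 and 0 of 32. Of all 51264 regions, 3139 were in the first state, and the reverse was not counted over all regions. The EPC lists thus carried endothelial and blood marker regions that the CPC lists lacked, while cardiac marker regions were split between them. Kdr, which codes for FLK1 and marks both sorts, had 7 regions, 0 of them closed in CPC and open in EPC before induction.

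Before induction, 9379 regions were open in EPC and closed in CPC, that is, had a peak in an uninduced EPC list and in no uninduced CPC list. Of these, 997 (10.6%) were gained in CPC with Sox7, and 8382 were not. Leaving 1 CPC list out of the rule moved this share to 18.4% (without induced list 1), 19.9% (without induced list 2), 20.6% (without uninduced list 1) and 13.8% (without uninduced list 2), and the gene list shares below use the full rule. Where both uninduced EPC lists had the peak, 495 of 3139 regions were gained, 15.8%. The gained regions included 353 with a peak in uninduced EPC list 1 alone and 149 in list 2 alone. Regions with higher scores in uninduced EPC were gained more often, at 6.92%, 7.80%, 11.2% and 18.8% from the lowest to the highest quartile of scores in list 1. In list 2 the shares were 10.0%, 9.59%, 13.8% and 18.7%. In both lists the highest quartile was gained most often, though most of its regions were not gained.

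Of the 2946 regions gained in CPC, 5.75% of all regions, the 997 open in uninduced EPC made up 33.8% (exact 95% interval 32.1 to 35.6), and 1949 had no uninduced EPC peak. Of the 1203 regions lost in CPC, with peaks in both uninduced lists and neither induced list, 387 (32.2%, 29.5 to 34.9) had an uninduced EPC peak. Across all regions the share was 59%. Gained and lost regions were thus open in EPC to a like extent under this rule. The share of all regions is no like baseline, since it includes regions with a peak in every list, which neither set can hold. Under other rules the gained share lay between 16.8% and 49.8%, and the lost share was not recomputed. Intervals here cover counting error only.

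The induced EPC lists, which the rule did not use, held most of the CPC-gained, EPC-open regions. Of the 997, 80.2% (77.6 to 82.7) had a peak in induced EPC list 1 and 85.0% (82.6 to 87.1) in list 2, a mean of 82.6% ± 3.33 (SD, n = 2). Among EPC-open regions not gained in CPC the shares were 39.6% and 42.9%, and among regions gained in CPC but without an uninduced EPC peak they were 38.9% and 43.0%. Neither comparison set came near the gained, EPC-open regions in either library. A peak in both induced EPC lists was present in 731 (73.3%) of the gained, EPC-open regions and in 2449 (29.2%) of the EPC-open regions not gained, against 46.1% of all regions. None was present in 81 (8.12%) and 3909 (46.6%) of those regions.

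**Figure D1:**
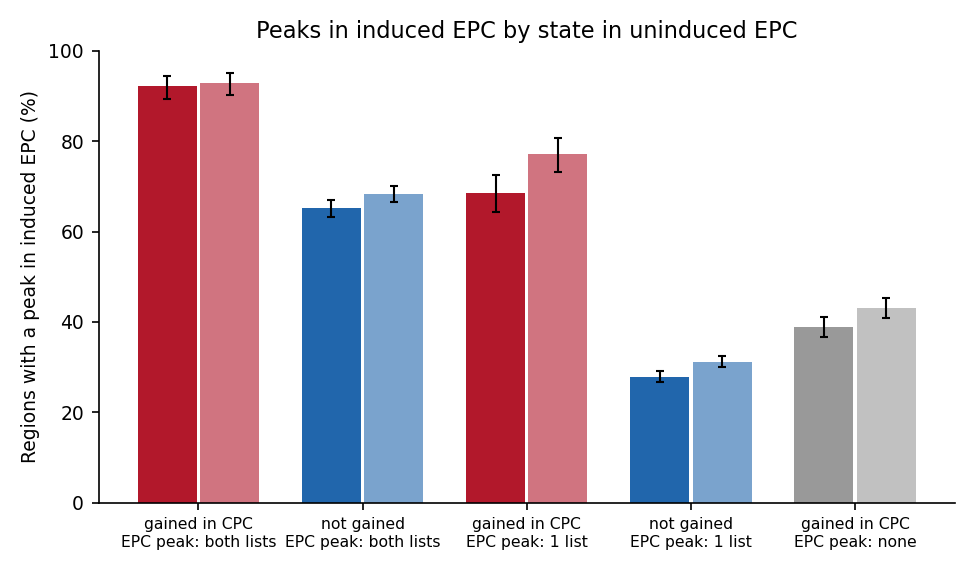
Share of regions with a peak in induced EPC (%), by whether the region was gained in CPC and by its peaks in uninduced EPC. Dark bars are induced EPC list 1, light bars list 2, and error bars exact 95% intervals. Gained regions stand above regions not gained in both libraries within each EPC state.

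The difference remained when the uninduced EPC state was matched. With a peak in both uninduced EPC lists, 92.1% and 92.9% of 495 gained regions had a peak in the induced EPC lists, against 65.2% and 68.4% of 2644 regions not gained. With a peak in 1 uninduced EPC list, the shares were 68.5% and 77.1% of 502 gained regions, against 27.9% and 31.2% of 5738 regions not gained. The gap was larger than the spread between the 2 libraries in each case, but with 2 libraries per group no exact permutation test could pass 0.05, and scores within a state were not matched. In the induced EPC lists the gained, EPC-open regions had median scores of 158 and 172, at the 51.6th and 54.3rd percentile of all peaks of those lists. The EPC-open regions not gained that had a peak there lay at the 29.9th and 32.5th percentile. In induced CPC the gained, EPC-open regions had median scores of 89.9 and 86.5, at the 32.6th and 31.3rd percentile, so most were weaker than the middle peak of those lists.

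Many regions fell just outside the rule. Another 1597 EPC-open, CPC-closed regions had a peak in 1 induced CPC list only, with a median score of 64.9 in that list, and 2099 EPC-open regions with peaks in both induced CPC lists had a peak in 1 uninduced CPC list, with a median score there of 86.6. The lower of the 2 induced CPC scores had a median of 72.8 over the 997 regions, and 275 regions scored 100 or more in both lists. The lowest were the regions in Impa2 (118 and 50.01), near Rnf145 (50.08 and 64.2) and in Grin2b (99.1 and 50.08), against a lowest listed score of 50. The rule rests on each library, and without uninduced CPC list 1 it kept 2630 regions. Impa2 and Grin2b code for an inositol phosphatase and a glutamate receptor subunit.

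Anti-Myc ChIP-seq peaks, also unused by the rule, lay on the CPC-gained, EPC-open regions mainly in induced samples. The share of the 997 regions on a peak was 6.72%, 4.41%, 16.9% and 3.81% in the induced lists, against 0.401%, 0.602%, 0.702% and 0.401% in the uninduced lists. Every induced list was above every uninduced list, and induced list 3, also the longest, stood far above the others. The means were 7.95% ± 6.07 (SD, n = 4) in induced and 0.535% ± 0.153 (SD, n = 3) in uninduced libraries, a difference of 7.41 percentage points with p = 0.0571 by a two-sided exact permutation test. That is the smallest p that 4 against 3 libraries allow, so no such test could pass 0.05. Without induced list 3 the induced mean was 4.98%. Input peaks lay on 2 of the 997 regions (0.201%).

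The comparison regions showed smaller shares in induced libraries. Widths were not matched, and wider regions overlap a peak more easily. The median was 1052 bp for the gained, EPC-open regions and 898 bp for gained regions without an uninduced EPC peak. It was 813 bp for EPC-open regions not gained and 945 bp for all ATAC regions. Gained regions without an uninduced EPC peak were on anti-Myc peaks in 4.40% ± 4.57 of cases in induced and 0.120% ± 0.0784 in uninduced libraries. EPC-open regions not gained had 1.34% ± 0.541 in induced and 0.722% ± 0.0678 in uninduced libraries (n = 4 and 3 throughout). All other ATAC regions had 2.30% ± 0.972 in induced and 1.27% ± 0.0605 in uninduced libraries. Regions that were open in EPC but not gained in CPC thus carried few induced peaks beyond the uninduced level.

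Per library, the induction difference of the gained, EPC-open regions exceeded that of EPC-open regions not gained by 6.80 points. It exceeded that of all other regions by 6.39 points and that of gained regions without an uninduced EPC peak by 3.13 points. Each of the 4 exact permutation tests gave p = 0.0571, and 0.0571 after Benjamini-Hochberg adjustment over the 4. The last difference was not stable. It was 0.159 points (exact permutation p = 0.743) when uninduced CPC list 1 was left out of the rule and 0.686 points (exact permutation p = 0.343) with anti-Myc peaks of score 100 or more.

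**Figure D2:**
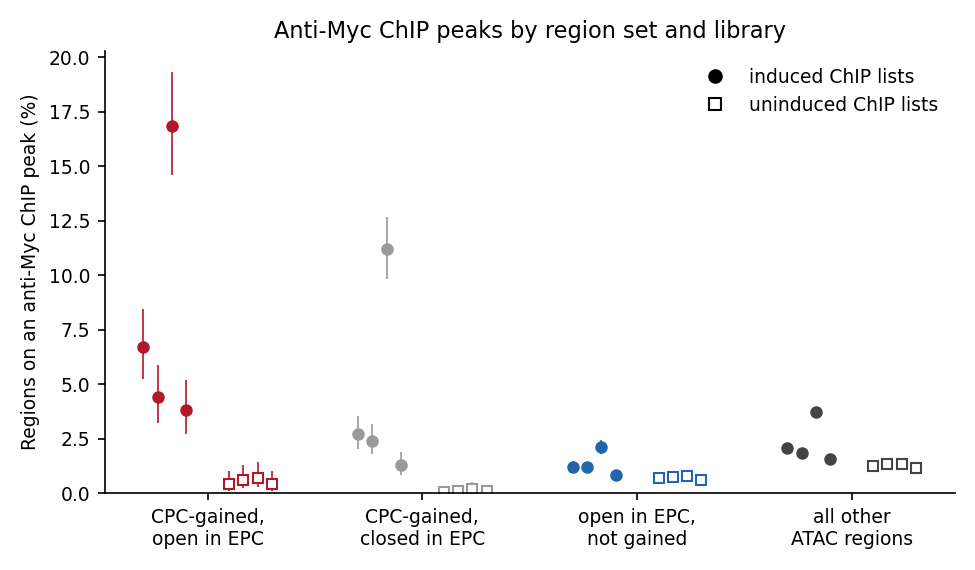
Share of regions on an anti-Myc ChIP peak (%) in each library, by region set, with induced lists as filled circles and uninduced lists as open squares. Bars are exact 95% intervals, and uninduced lists 2 and 4 were counted as 1 library in the tests. In the CPC-gained, EPC-open set the induced lists lie between 3.81% and 16.9% and the uninduced lists between 0.401% and 0.702%.

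An induced Sox7 site was a merged anti-Myc peak region present in at least 3 induced lists and 0 uninduced lists, of which there were 235. Of these sites, 34 lay on a CPC-gained, EPC-open region, 14.5% of the sites. Conversely, 34 of the 997 regions (3.41%, 2.37 to 4.73) lay on such a site, against 1.49% of gained regions without an uninduced EPC peak and 0.179% of EPC-open regions not gained, beside 0.414% of all regions. None of the 1203 regions lost in CPC did, which allows a share of up to 0.249%, the limit of 3 counts in 1203. On a peak of at least 1 induced list lay 179 of the 997 regions (18.0%), against 4.75% of all regions, and on a peak of any uninduced list 7 (0.702%). Widths of the compared sets were not matched here either. Most of the 997 regions, 818, were on no induced anti-Myc peak.

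Seen from the EPC-open, CPC-closed regions, those on an induced Sox7 site were gained in CPC in 34 of 49 cases (69.4%, 54.6 to 81.7), against 963 of 9330 (10.3%) of those not on one. Among regions on no uninduced anti-Myc peak, 818 of 8940 (9.15%) were gained with no induced peak. With a peak in 1, 2, 3 and 4 induced lists, 45.8% of 227, 54.8% of 62, 53.8% of 26 and 87.0% of 23 regions were gained. The 15 EPC-open regions on an induced site that were not gained show that such a site did not always go with a gain.

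**Figure D3:**
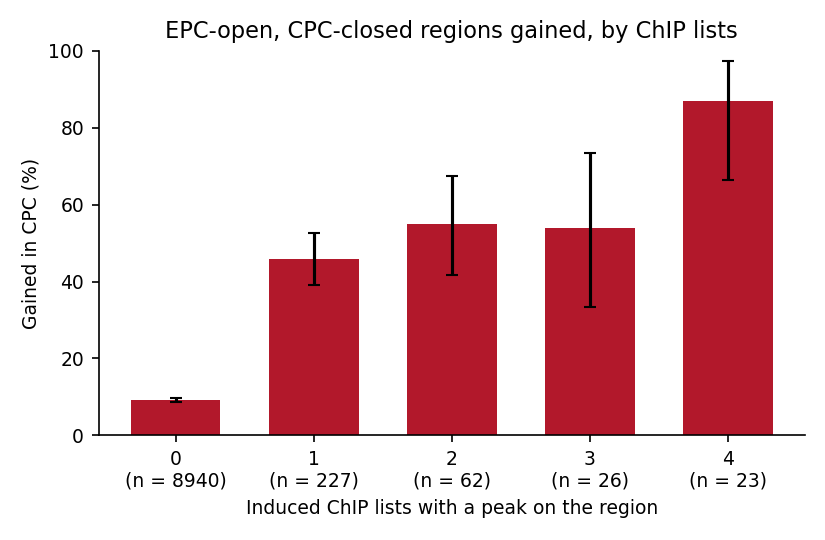
Share of EPC-open, CPC-closed regions gained in CPC (%) by the number of induced anti-Myc ChIP lists with a peak on the region, for regions on no uninduced peak. Bars have exact 95% intervals. The share is 9.15% with no induced list and 87.0% with all 4.

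The 34 regions on induced sites had higher scores than the other 963 in induced EPC as well as in induced CPC. Of the 34, 33 had a peak in both induced EPC lists, beside 73.3% of all 997 regions and 46.1% of all ATAC regions. The median scores of the 34 there were 366 and 372, against 154 and 168 for the others. Their median scores were 170 and 141 in induced CPC, against 88.3 and 85.5 for the others. They lay inside a protein-coding gene in 15 cases, outside but within 50 kb of one in 8, and with none within that distance in 11.

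The strongest induced site on these regions lay 38.9 kb from Fth1, which codes for the heavy chain of the iron store ferritin (chr19:9940610-9941691). Its anti-Myc peaks scored 601, 733, 1287 and 332, and its ATAC peaks 95.5 and 119 in induced CPC, 227 and 408 in induced EPC, and 142 and 104 in uninduced EPC. A region inside Tfec, which codes for a transcription factor related to Mitf, had anti-Myc scores of 160, 97.5, 194 and 57.1. It scored 289 and 139 in induced CPC, 1123 and 979 in induced EPC, and 597 and 322 in uninduced EPC. The Fth1 region thus had the higher anti-Myc scores and the lower ATAC scores of the pair.

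Regions inside Sema6a, a guidance ligand, near Arsi, a sulfatase gene, and inside Foxp1, a forkhead transcription factor gene, also had peaks in all 4 induced anti-Myc lists. So did regions in Gna12, which codes for a G protein alpha subunit, near Slc20a1, a phosphate transporter gene, and in Egfem1. Regions in Ptprh, which codes for a receptor-type tyrosine phosphatase, in Vwa7, in Akap1, an anchoring protein gene, and near Rgs3, a regulator of G protein signalling, had 3. The Gna12 region scored 50.7, 76.9, 296 and 58.7 in the induced anti-Myc lists and 219 and 94.6 in induced CPC. For the other 8 of the 20 highest-scoring sites no protein-coding gene lay within that distance of 50 kb. Of the 34 site regions, 1 belonged to a gene of the lists below, Ets1.

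The 10 regions with the highest induced CPC scores all had peaks in both induced EPC lists, beside 73.3% of all 997 regions. These 10 were picked by scores of lists that the rule used. The region 4.0 kb from Ccne1, which codes for cyclin E1 of the cell cycle (chr7:38092820-38093985), scored 699 and 681 in induced CPC, 575 and 619 in induced EPC, and 165 and 111 in uninduced EPC. The region in Vangl2, a planar cell polarity gene, scored 672 and 700 in induced CPC, 964 and 647 in induced EPC, and 130 and 50.07 in uninduced EPC. Both thus scored far higher in both induced sorts than in uninduced EPC. The region in AA986860 instead scored 557 and 523 in induced CPC, 1924 and 1571 in induced EPC, and 872 and 505 in uninduced EPC. The others lay in Ptprh, in Plekha3, 30.3 kb from Susd1, at Tmem86b, and at 3 places with no protein-coding gene within 50 kb. Ptprh (chr7:4552406-4553773) was in both this group and the 20 sites above.

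Each region was assigned to the protein-coding genes it overlapped or, failing that, to the nearest within 50 kb, which does not show which gene a region acts on. This gave 815 regions at 786 genes, 3.59% of 21887 protein-coding genes and 4.68% of the 16803 that had any ATAC region. The regions were spread thinly, with 740 genes holding 1, 42 holding 2 and 4 holding 3. The 4 were Agpat3, a phospholipid synthesis gene, Eml4, a microtubule-binding protein gene, Gna12 and the kinase gene Hunk. Inside a gene lay 552 regions (55.4%), outside but within 50 kb 263 (26.4%), and with none in reach 182 (18.3%).

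Within 1 kb of a gene boundary lay 15.8% of the gained, EPC-open regions (13.6 to 18.3), against 6.11% of gained regions without an uninduced EPC peak and 11.6% of EPC-open regions not gained, beside 26.7% of all regions. On a promoter window lay 12.5%, against 4.00% and 6.82%, beside 21.8% of all regions. The gained, EPC-open regions thus lay near a gene boundary more often than both comparison sets and less often than ATAC regions in general. The second difference depended on the rule. The share was 32.3% without uninduced CPC list 1 and 26.4% with ATAC scores of at least 100 in every list. It was 14.4% where presence needed that score and absence from uninduced CPC held at any score. Median widths were 1052 bp, against 898 and 813 bp, and wider regions overlap a boundary more easily.

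The gained share of endothelial-list regions was close to that of all EPC-open, CPC-closed regions, with a wide interval. Of 60 EPC-open, CPC-closed regions at 36 endothelial genes, 6 were gained in CPC (10.0%, 3.76 to 20.5), against 10.6% of all such regions. They belonged to 5 genes, Cdh5, Tek, Ets1, Nrp2 and S1pr1, 13.9% of the list. The share was 3.59% of all protein-coding genes and 4.68% of those with any ATAC region. Neither base was matched for the number of EPC-open, CPC-closed regions per gene. Of the 36 genes, 25 had an EPC-open, CPC-closed region before induction. Another 10 of the 60 regions had a peak in 1 induced CPC list. All 6 gained regions had a peak in both uninduced EPC lists, and of the 27 endothelial-list regions with that state they were 22.2%, beside 15.8% of all such regions.

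Cdh5 codes for VE-cadherin, the adhesion molecule of endothelial junctions, and 2 of its 4 EPC-open, CPC-closed regions were gained. The region 4.2 kb from the gene (chr8:104095272-104097450) scored 140 and 138 in induced CPC, 293 and 496 in induced EPC, and 172 and 70.1 in uninduced EPC. The region inside it (chr8:104101021-104102060) scored 62.6 and 59.9 in induced CPC, 392 and 256 in induced EPC, and 370 and 51.9 in uninduced EPC. Both scored lower in induced CPC than in induced EPC, and the one inside the gene was close to the lowest listed score in induced CPC. Neither was on an anti-Myc peak.

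Tek codes for the angiopoietin receptor TIE2, and 1 of its 2 such regions was gained. That region, inside the gene (chr4:94745613-94747191), scored 222 and 212 in induced CPC, 490 and 491 in induced EPC, and 267 and 107 in uninduced EPC. Ets1, an ETS-family transcription factor gene active in endothelium and lymphoid cells, had 1 of 5 regions gained. That region (chr9:32715576-32716738) scored 234 and 127 in induced CPC, 825 and 787 in induced EPC, and 504 and 236 in uninduced EPC. It was the endothelial-list region on an induced Sox7 site, with anti-Myc scores of 52.1, 90.2 and 88.2 in induced lists 1 to 3.

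The region 23.8 kb from Nrp2, which codes for a co-receptor for VEGF and semaphorins, scored 186 and 196 in induced CPC, 289 and 366 in induced EPC, and 136 and 125 in uninduced EPC, with 1 anti-Myc peak in induced list 3. The region 20.3 kb from S1pr1, a sphingosine-1-phosphate receptor gene, scored 59.0 and 77.1 in induced CPC, 76.8 and 95.4 in induced EPC, and 222 and 87.7 in uninduced EPC. S1pr1 was the endothelial-list region that scored higher in uninduced EPC list 1 than in any induced list. Most endothelial genes had EPC-open regions that stayed out of the gained set. Flt1, the VEGF receptor 1 gene, Egfl7 and Fli1 each had 6 such regions and 0 gained, Erg, Cldn5 and Aplnr each had 3 and 0 gained, and Flt4, Esam, Cd34, Nos3 and Tal1 each had 2 and 0 gained. Outside these regions, 9 regions at genes of the list were gained in CPC without an uninduced EPC peak, among them 3 at Flt1.

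**Figure D4:**
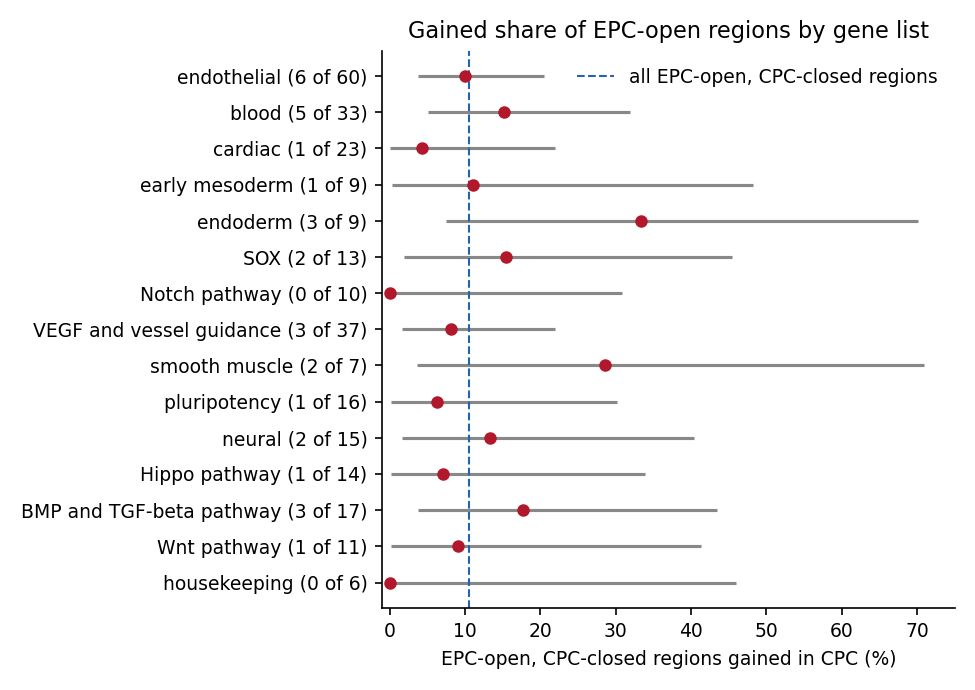
Share of EPC-open, CPC-closed regions gained in CPC (%) at the genes of each of 15 lists, with the number gained and the number of regions in the row label. Grey bars are exact 95% intervals and the dashed line is the 10.6% of all such regions. The interval of each list spans the dashed line.

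Of the gained regions at blood genes, 1 of 5 scored 100 or more in both induced CPC lists, beside 275 of all 997 regions. Of 33 EPC-open, CPC-closed regions at 25 blood genes, 5 were gained (15.2%, 5.11 to 31.9), beside 10.6% of all such regions. They belonged to 4 genes, 16% of the list, beside 3.59% of all protein-coding genes and 4.68% of those with any ATAC region, again unmatched bases. Where both uninduced EPC lists had the peak, 2 of 18 blood-list regions were gained (11.1%), beside 15.8% of all regions with that state. Nfe2, an erythroid and megakaryocyte transcription factor gene, had both of its 2 regions gained. The first (chr15:103247729-103248825) scored 53.9 and 55.7 in induced CPC and 53.3 in uninduced EPC list 2, with no peak in induced EPC and an anti-Myc peak of 55.3 in induced list 3. The second (chr15:103254814-103255867) scored 79.5 and 147 in induced CPC, 83.5 in induced EPC list 2 and 77.3 in uninduced EPC list 1. Neither Nfe2 region had a peak in every EPC list.

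The region 1.4 kb from Hbb-bh1, an embryonic globin gene (chr7:103844549-103845349), scored 63.5 and 50.93 in induced CPC, 319 and 670 in induced EPC, and 192 and 113 in uninduced EPC. Ptprc, the gene of the leukocyte antigen CD45, had a region 23.0 kb away with 53.3 and 74.5 in induced CPC, 214 and 225 in induced EPC, and 146 and 73.6 in uninduced EPC. Both were near the lowest listed score in induced CPC and well above it in induced EPC. Zfpm1, which codes for the GATA1 partner FOG1, had 1 of 7 regions gained, at 102 and 124 in induced CPC, 55.2 in induced EPC list 2 and 56.4 in uninduced EPC list 2. None of the EPC-open, CPC-closed regions of Ikzf1 (4), Spi1 (3), Myb (3), Tal1 (2), Runx1 (2), Gata1 (1), Gata2 (1) or Itga2b (1) was gained.

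At 30 cardiac genes, 1 of 23 EPC-open, CPC-closed regions was gained (4.35%, 0.110 to 21.9), beside 10.6% of all such regions. It lay in Tnni1, a troponin I gene of slow muscle and embryonic heart (chr1:135794234-135795543), and scored 259 and 220 in induced CPC, 275 and 768 in induced EPC, and 314 and 102 in uninduced EPC. At endoderm genes 3 of 9 were gained (33.3%, 7.49 to 70.1), near Dab2, an endocytic adaptor gene, near Ttr, the transthyretin gene, and in Cubn, the gene of an endocytic receptor. The Dab2 region scored 210 and 185 in induced CPC, 207 and 214 in induced EPC, and 127 and 89.5 in uninduced EPC, with 1 anti-Myc peak. Ttr scored 68.4 and 58.0 in induced CPC, and Cubn 97.3 and 81.4. Such counts are too small to place a list above or below the background.

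Among SOX genes 2 of 13 EPC-open, CPC-closed regions were gained (15.4%, 1.92 to 45.4), beside 10.6% of all such regions. Sox7 had 1 such region, which was not gained, and Sox17 and Sox18 had 0. The region 23.6 kb from Sox13, a SOXD gene, scored 282 and 159 in induced CPC, 225 and 223 in induced EPC, and 87.8 and 73.5 in uninduced EPC, with anti-Myc peaks in 2 induced lists. The region in Sox5, another SOXD gene, scored 124 and 177 in induced CPC, 888 and 857 in induced EPC, and 389 and 323 in uninduced EPC, with 1 anti-Myc peak. Sox5 thus scored higher in induced EPC than in induced CPC, while the Sox13 scores of both induced sorts overlapped.

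In the VEGF and vessel guidance list, 3 of 37 regions were gained (8.11%, 1.70 to 21.9), beside 10.6% of all EPC-open, CPC-closed regions, at Nrp2, at Robo1, a receptor for Slit, and at Sema6d, a guidance ligand gene. Robo1 scored 184 and 129 in induced CPC, 213 and 300 in induced EPC, and 158 and 70.9 in uninduced EPC. Sema6d scored 213 and 168 in induced CPC, 364 and 492 in induced EPC, and 62.1 in uninduced EPC list 2. In the Hippo list 1 of 14 was gained (7.14%, 0.181 to 33.9), in Tead1, the gene of a DNA-binding partner of YAP, at 168 and 255 in induced CPC, 710 and 549 in induced EPC, and 185 and 147 in uninduced EPC. Tead1 had anti-Myc peaks in 2 induced lists. At genes of the Notch pathway 0 of 10 regions were gained, for which the exact 95% interval reaches 30.8%.

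**Figure D5:**
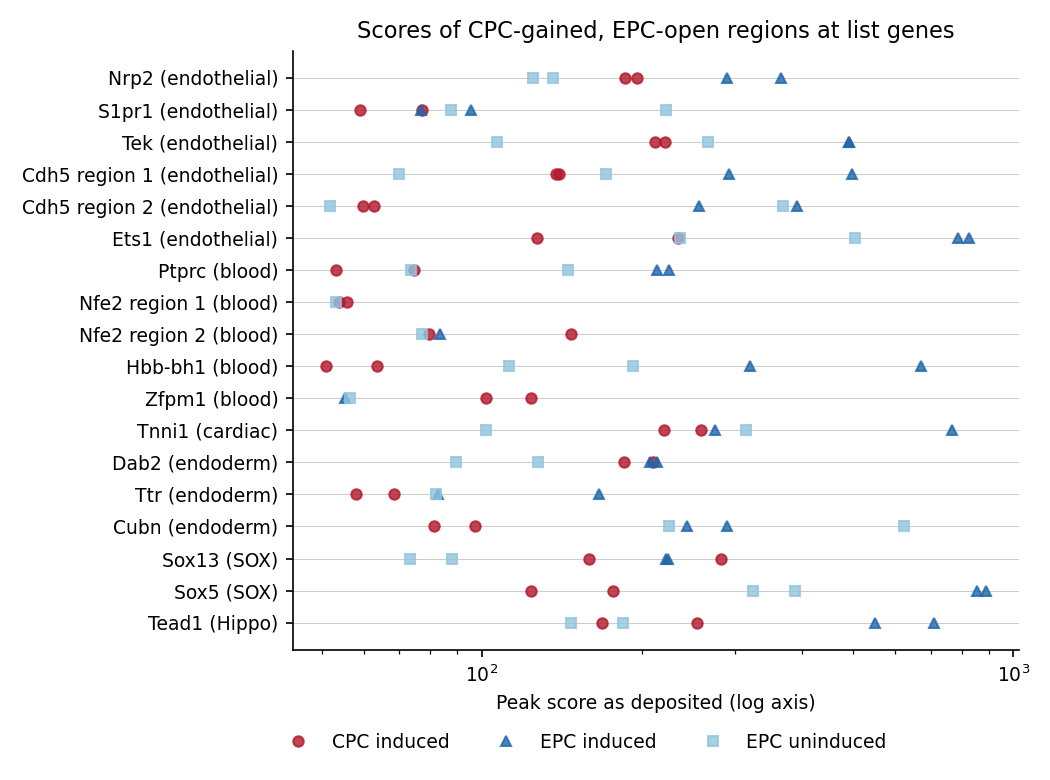
Deposited peak scores (log axis) of the gained, EPC-open regions at genes of the endothelial, blood, cardiac, endoderm, SOX and Hippo lists, 1 row per region and 1 point per list with a peak. Red circles are induced CPC, dark blue triangles induced EPC and light blue squares uninduced EPC. Ets1, Sox5 and Hbb-bh1 score higher in both induced EPC lists than in induced CPC.

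The genes of the remaining lists were named after their values were seen, and each list held 3 gained regions or fewer. BMP and TGF-beta genes had 3 of 17 gained (17.6%; Acvr1, Bmp7, Smad6), neural genes 2 of 15 (13.3%), smooth muscle genes 2 of 7 (28.6%; Smtn, Tpm2) and pluripotency genes 1 of 16 (6.25%; Esrrb). Early mesoderm genes had 1 of 9 (11.1%; Mesp1), Wnt genes 1 of 11 (9.09%; Wnt5b) and housekeeping genes 0 of 6. The exact 95% interval of each of these lists held the 10.6% of all EPC-open, CPC-closed regions. The region 4.8 kb from Mesp1, a gene of the earliest cardiac mesoderm, scored 170 and 100.2 in induced CPC, 69.6 and 58.7 in induced EPC, and 67.6 in uninduced EPC list 2. It scored higher in both induced CPC lists than in any EPC list.

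The authors also deposited lists that they derived themselves. The authors' deposited list of regions found in CPC only with doxycycline, 3093 in all, overlapped 991 of the 997 regions (99.4%), which share their CPC data with it. The authors' deposited list for EPC only with doxycycline overlapped 13 (1.30%), against 6.34% of all regions, as follows from the uninduced EPC peak in the rule. Their deposited Sox7 list of 666 regions overlapped 65 of the 997 (6.52%), against 0.942% of all regions, and its entries on these regions were 9.91% of that list. Their deposited Sox7 and Gata4 list of 117 overlapped 12 (1.20%), against 0.217% of all regions, and 10.3% of that list lay on these regions. Gata4 is a transcription factor of cardiac and endoderm progenitors.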

How the data were processed

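ATAC-seq and anti-Myc ChIP-seq peak lists were used, 1 per library. Per the submitters' processing notes, the build was GRCm38 (mm10) and MACS 1.4, Trimmomatic, Bowtie2, bedtools and SAMtools are among the tools listed, without their roles. The score of a peak is as deposited by the authors. Filters and thresholds are not given in the sources used here, and replicates were not pooled. Lists hold no read counts, so depth is unknown.

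Peaks were merged at 1 bp of overlap. Shares have exact Clopper-Pearson 95% intervals. ChIP shares were compared over libraries with two-sided exact permutation tests, adjusted by the Benjamini-Hochberg method over 4 tests. Python 3.11.15, pandas 2.3.3, numpy 2.4.6, scipy 1.17.1 and matplotlib 3.10.9 were used, and merging and tests were checked on simulated data. Gene positions and promoters came from RefSeq (GRCm38.p6), in which all 349 list entries were matched.

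Regions, lists and rules were chosen with earlier results of these data known. Regions named were those at genes of the endothelial, blood, cardiac, endoderm, SOX, Notch, VEGF and Hippo lists, the 10 with the highest mean induced CPC score, the 20 induced sites with the highest mean anti-Myc score, the 3 with the lowest score, and those of genes with 3 or more. The promoters shown were chosen after their values were seen, in place of a planned motif search in the regions. RNA-seq samples were not analysed here. The neural list is given as a count, and 1 of its regions is not reported here. Alternatives stand in the closing section.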

Additional observations from a re-analysis of the deposited data

Results flagged for a closer look

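Among the 4 induced anti-Myc libraries, 1 stood apart. In induced list 3, 11.2% of the CPC-gained regions without an uninduced EPC peak lay on an anti-Myc peak, against 2.72%, 2.41% and 1.28% in induced lists 1, 2 and 4. Its gap to the nearest library was 0.855 of the whole range, above Dixon's 95% critical value of 0.829 for 4 libraries. Chance passes such a value in about 1 in 20 groups. The same list also had the highest share on the CPC-gained, EPC-open regions, 16.9%, and was the longest ChIP list with 2807 peaks. The part of list length in this share was not tested.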

How the results depend on the processing

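The 4 anti-Myc differences kept their sign under every alternative run. The position near gene boundaries did not keep its side of the 26.7% of all regions, and the comparison of gained with lost regions was not recomputed. The number of CPC-gained, EPC-open regions was 632 when ATAC lists were limited to scores of at least 100, 160 where presence but not absence needed that score, 651 with ATAC lists of equal length, and 495 with a peak required in both uninduced EPC lists. Leaving out 1 ATAC replicate gave 644 (without uninduced EPC list 1) to 2630 (without uninduced CPC list 1), and 1725 and 1866 without induced CPC list 1 or 2. In the same order, the share of gained regions open in EPC was 36.7% and 21.9% at the 2 score settings and 16.8% with both EPC lists, and 21.9% to 49.8% with 1 replicate left out. The share of EPC-open, CPC-closed regions gained was 12.6% and 6.06% at the score settings, 8.45% at equal length and 15.8% with both lists, and 11.2% to 20.6% with 1 left out. Peaks in induced EPC covered 86.1%, 94.4% and 92.5% of the regions at the score settings and with both lists, and 72.0% to 87.6% with 1 left out. Near a gene boundary lay 26.4% at a score of 100 in every list and 14.4% where presence but not absence needed that score. The share was 31.7% within 5 kb, and 14.4% to 32.3% with 1 left out, the highest without uninduced CPC list 1.

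Endothelial genes with such a region numbered 3 within 10 kb and 3 by overlap only, and 5 to 9 with 1 replicate left out, being 8 or 9 without any 1 CPC list. Blood genes numbered 0 at either score setting, 2 with both EPC lists and 1 by overlap only, and 3 to 8 with 1 left out, the highest without uninduced CPC list 1 and 7 without induced CPC list 2. The cause of these shifts was not tested.

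With uninduced ChIP lists 2 and 4 as separate libraries, the anti-Myc differences were 7.42 points for the gained, EPC-open regions and 3.14, 6.79 and 6.39 points against the gained EPC-closed, the EPC-open not gained and all other regions, each with exact permutation p = 0.0286, the smallest that 4 against 4 allow. With the replicate block these values were the same, with an exact sign-flip permutation p = 0.125, the smallest for 4 pairs, and the labels give no shared source for equal numbers. With 1 replicate left out they ranged from 3.72 to 8.79, 0.159 to 3.78, 3.17 to 8.01 and 2.72 to 7.53 points, the lowest each time without uninduced CPC list 1. For the gained, EPC-open regions the difference was 4.45 points without induced ChIP list 3, and 4.86 and 4.47 points without induced CPC list 1 or 2. With ChIP lists of equal length, an alternative chosen after seeing the data, they were 2.71, 1.46, 2.68 and 2.63 points. Over all alternatives the exact permutation p lay between 0.0286 and 0.133, except for the gained EPC-closed comparison, where it reached 0.743. A 200-base motif window was not run, as no genome was used here.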

Other observations

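The CPC-gained, EPC-open regions lay on every chromosome but Y. Their share of a chromosome's ATAC regions was lowest on chromosome 9, with 36 regions (1.42%), and highest on chromosome 14, with 57 regions (2.64%), beside 1.94% of all regions. Hairpins of 3 miRNAs lay on these regions, Mir6387 on chromosome 12 and Mir5132 and Mir718 on chromosome X. A peak in all 6 lists other than those of uninduced CPC was present in 432 of the 997 regions. No hypothesis was tested on these values.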
